A study of Trachemys scripta with 4 samples.

Results

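Collagens and the enzymes that modify them were followed in embryonic peripheral nerves of the turtle *Trachemys scripta* at st.19 and st.21. Of the 15289 genes deposited, 57 carry the symbol of a collagen chain (39 genes) or of an enzyme, chaperone or cofactor of collagen (18 genes), and these 57 were taken by symbol alone. The annotation holds 58 such symbols, and COL17A1 was not analysed here. The chains were grouped as fibrillar (10), network (8), FACIT (10), transmembrane (3), beaded (3) and multiplexin and other (5). The enzymes were grouped as prolyl hydroxylases and their partner CRTAP (8), lysyl hydroxylases (2), the chaperone SERPINH1 (1), procollagen C-proteinase and enhancer (2) and lysyl oxidases (5).

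Nerves were taken from the brachial and sacral plexus of untreated embryos, whose eggs were laid by adult females after oxytocin and kept at 28 °C. The stages were picked by the outer form of the embryos. The embryos' sex and clutch were not given. Polyadenylated RNA of 1 sample per stage was sequenced, and each stage is present as 2 columns of values, replicate 1 and replicate 2. Tissue around the nerve may have come with the pieces.

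Collagens are secreted proteins whose chains coil into a helix built on repeated glycines. Fibrillar chains (types I, II, III, V, XI and others) make fibres, type IV makes the sheet of basement membranes, type VI makes beaded filaments, and FACIT chains sit on the surface of fibres. Before secretion the prolines are hydroxylated by P4HA and P3H proteins and the lysines by PLOD proteins, and SERPINH1 (HSP47) holds the helix together. Outside the cell BMP1 cuts off the C-propeptide and the lysyl oxidases cross-link the fibres. In mammalian nerve, fibroblasts and perineurial cells lay down most of the fibrillar collagen, and Schwann cells depend on a basement membrane with type IV collagen to ensheath axons.

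Whole reads could be rebuilt from the deposited values, and the depth was 4241655 to 4353821 reads on genes for st.19 and 2129599 to 2229177 for st.21. Over genes with 5 to 500 reads, both columns of a stage lay closer together than sampling noise between separate libraries, with a chi-square per gene of 0.492 for st.19 and 0.33 for st.21, where such libraries give about 1. Each stage was thus treated as 1 sample and no test was run between stages. Levels are in TPM (reads divided by gene length, scaled to the same sum in each column), and a log2 fold change is the mean log2 TPM at st.21 minus that at st.19. A single rRNA gene, LOC117869916, made up 18.9% (replicate 1) and 44.2% (replicate 2) of all TPM at st.19 and at most 0.317% at st.21, so st.19 replicate 2 reads lower than replicate 1 for nearly every gene (by 0.53 on the log2 scale at the median). Ratios between genes within a column are free of this. Of 8 Schwann cell markers all 8 were analysed, and their summed TPM was 2270 and 1541 at st.19 and 4592 and 4526 at st.21, while 7 of 8 neuron markers summed to 3677 and 2596 at st.19 and to 2498 and 2588 at st.21. Skeletal muscle markers (8 of 10 analysed, MYH3 and MYLPF not) went from 91.7 and 60.2 to 2584 and 2557 TPM. The 5 immune cell markers analysed of 6 summed to 40.4 and 27.9 and then to 108 and 108 TPM, with no read of SPI1 at st.19, and of 6 epidermal markers only TP63 was analysed, below 1 TPM throughout.

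Most collagen genes were higher at st.21. A log2 fold change above 0 was found in 51 of the 57 genes and in 53.1% of all 15100 genes tested. In 45 of the 57 both st.21 columns lay above both st.19 columns, as they did in 38.9% of all genes tested. Of the 57 genes, 32 had a log2 fold change above 1, where 17.3% of all genes tested did, and 2 (PCOLCE2 and COL19A1) had one below −1, where 9.68% of all genes did. The median log2 fold change was 1.14 over the 57 genes, 1.03 over the chains and 1.41 over the enzymes, beside 0.06 over all genes tested. All 57 passed the filter of 1 TPM in 2 columns, COL4A4 through its st.21 values alone. After subtracting each column's median, 32 were above 1 (16.6% of all genes) and 2 below −1 (10.2%). With the TPM total taken over protein-coding genes, and the comparison kept to the 14245 such genes that passed the filter, the median gene moved to −0.46, and 22 members were above 1 (7.34% of the 14245) and 2 below −1 (24.6%). The members' median stood 1.07 above that of all genes on the log2 scale as deposited, and 0.85 above it with quantile normalization, which unlike the other scalings does not shift all genes of a column alike. A member that overlaps another gene in the annotation may share reads with it, since the sources do not say whether strand was used in counting. Over the 7 scalings tried, 47 of the 57 genes kept their sign and 17 stayed above 1. The 6 lower genes were among the 47, but no scaling raised values by much, so this was no check of them. PLOD2 (−0.12) reached −0.05 at its highest over the scalings. Without st.19 replicate 1, PLOD2 (0.13) and COL22A1 (0.10) turned positive. In that setting 53 of the 57 were above 0, and the median over all genes was 0.33. The share of all genes tested that kept their sign or stayed above 1 was not counted. With the rRNA gene left out of the total, the median over all genes was −0.51. In a bulk sample, more cells of a type and more RNA per cell cannot be told apart.

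**Figure D1:**
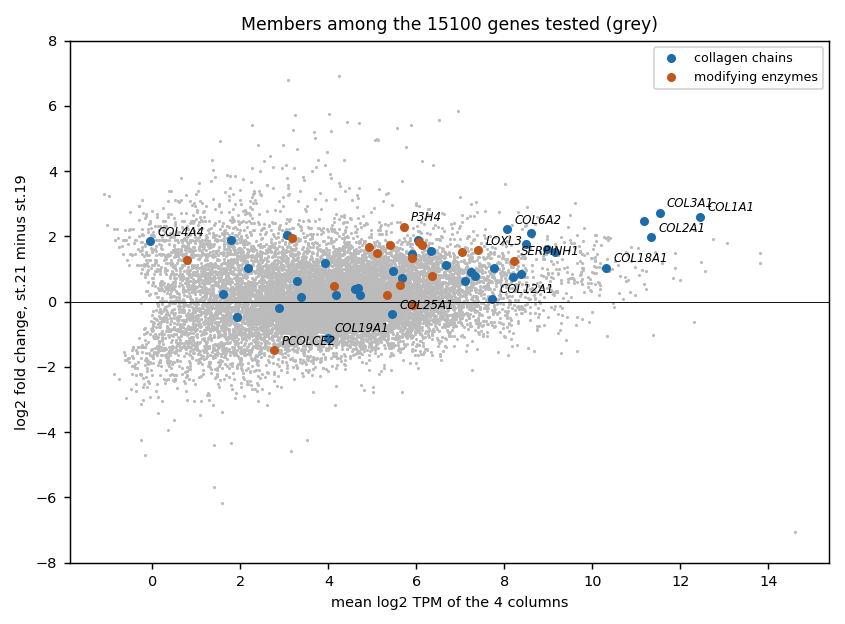
Log2 fold change (st.21 minus st.19) against mean log2 TPM of the 4 columns, for the 15100 genes tested (grey), the 39 collagen chains (blue) and the 18 modifying enzymes (orange). Most collagen points lie above the line at 0; COL3A1, at 2.73, is the highest of them, and PCOLCE2, at −1.50, the lowest.

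As deposited, the largest log2 fold changes were those of type I and type III collagen, the chains of ordinary connective tissue fibres. COL1A1, which encodes the main chain of type I collagen (chromosome 23, 9171060 to 9197399), had 2760 and 1847 TPM at st.19 and 13897 and 13548 TPM at st.21. COL1A2, its partner chain (chromosome 2, 45840747 to 45889627), had 1171 and 802 TPM and then 5431 and 5430 TPM. COL3A1, the only chain of type III collagen (chromosome 11, 48617477 to 48691825), had 1382 and 951 TPM and then 7596 and 7628 TPM. In each of these genes both st.21 columns stood far above both st.19 columns. The log2 fold changes were 2.60 for COL1A1, 2.49 for COL1A2 and 2.73 for COL3A1, or 6.08-fold, 5.60-fold and 6.64-fold. With quantile normalization they were 1.37, 1.62 and 1.708. All were then below P3H4 (2.09), COL21A1 (1.97), P4HA3 (1.89), COL10A1 (1.81), COL4A4 (1.79) and COL6A2 (1.711). COL10A1 and COL4A4 rest on few reads, and COL4A4 passed the filter through its st.21 values alone. COL1A1 was then also below COL16A1 (1.62), P3H2 (1.56), LOX (1.56), LOXL2 (1.54), COL5A3 (1.49) and BMP1 (1.46). The exact 95% counting interval, taken from the reads of the replicate 1 columns and set on the mean scale of the columns, ran from 2.674 to 2.730 for COL3A1. It uses only the replicate 1 reads, and the mean fold change can fall just outside it. This was so for COL3A1 (2.731) and for COL1A1 (2.603, interval 2.556 to 2.594). Such intervals cover counting error only and say nothing of differences between embryos. By level COL1A1 ranked 14 of the 15100 genes at st.19 and 4 at st.21, and COL3A1 went from rank 40 to rank 9. COL1A1 alone took 0.749% and 0.708% of the reads on genes at st.19, and 3.56% and 3.50% at st.21.

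The other fibrillar chains spread over a wide range. Type V collagen, which is built into type I fibres and limits their width, has 3 chains here. COL5A1 had 341 and 235 TPM at st.19 and 868 and 874 TPM at st.21, and COL5A2 had 397 and 277 TPM and then 957 and 959 TPM. COL5A3, a chain that Schwann cells are known to make in the rat, had 225 and 154 TPM and then 808 and 796 TPM. Each of these chains was higher in both st.21 columns, by a log2 fold change of 1.62 for COL5A1, 1.53 for COL5A2 and 2.11 for COL5A3. With quantile normalization COL5A1 (0.97) and COL5A2 (0.88) fell below 1. COL24A1 (1.18, counting interval 0.77 to 1.57) and COL11A1 (0.64, interval 0.51 to 0.72), a chain of cartilage fibres, differed less. COL24A1 fell below 1 under 3 of the 7 scalings, to 0.61 at the lowest. COL27A1 had 19.8 and 14.0 TPM at st.19 and 19.2 and 19.4 TPM at st.21, so that its columns overlapped. Its log2 fold change of 0.21 turned to −0.36 with the rRNA gene left out of the total, and its interval of −0.10 to 0.49 included 0.

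**Figure D2:**
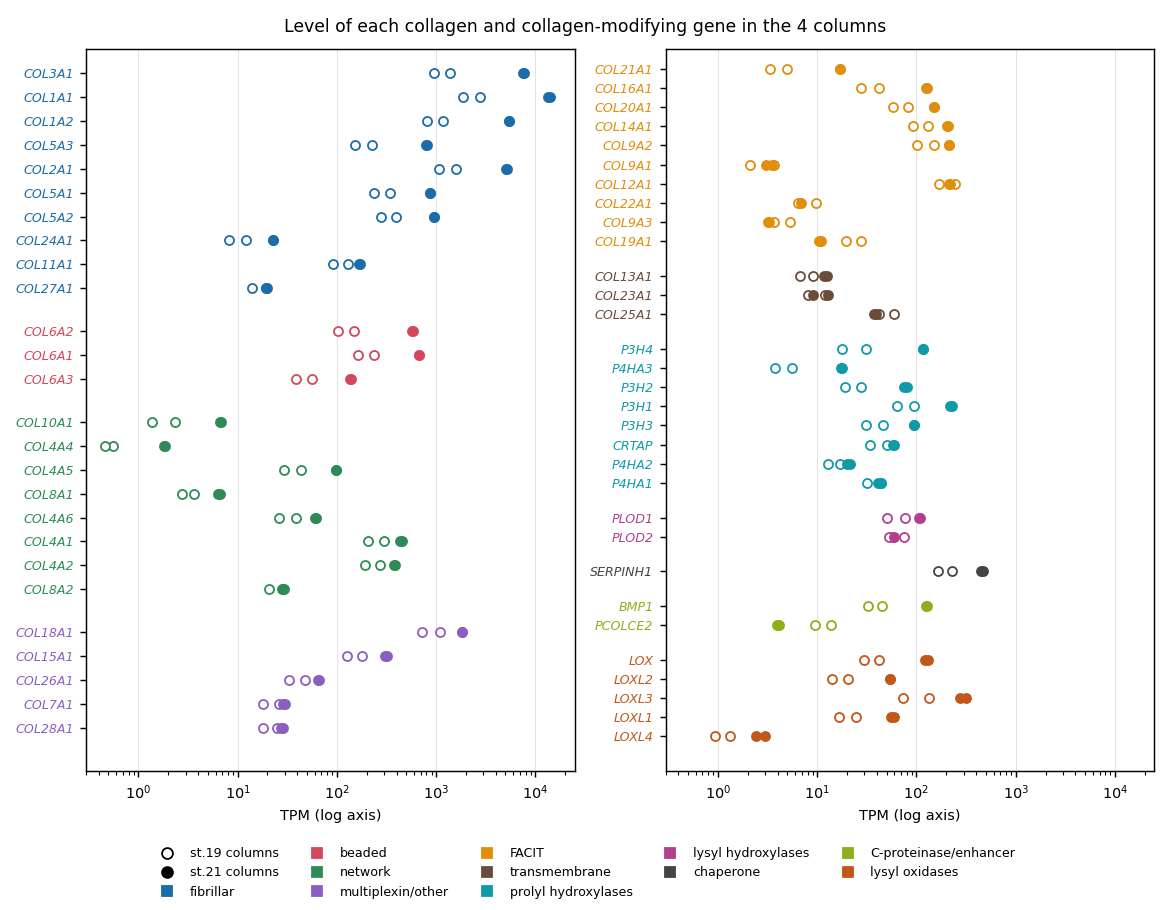
TPM (log axis) of each of the 57 genes in the 2 st.19 columns (open points) and the 2 st.21 columns (filled points), grouped and coloured by class. For COL1A1, COL3A1 and COL6A2 the filled points lie far to the right of the open ones, whereas for COL12A1, COL25A1 and PLOD2 they fall among them or to the left.

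COL2A1, the chain of type II collagen best known from cartilage (chromosome 16, 19539864 to 19604306), was among the most abundant genes at both stages. It had 1579 and 1076 TPM at st.19 and 5128 and 5066 TPM at st.21, a log2 fold change of 1.97 that came to 0.95 with quantile normalization. The chains that accompany type II collagen in cartilage had lower log2 fold changes, though COL11A1 (0.64) and COL9A2 (0.78) were also higher at st.21. COL11A1 had 0.0826 and 0.0853 TPM for each TPM of COL2A1 at st.19 and 0.0329 and 0.0341 at st.21, a change of the ratio by −1.33 on the log2 scale (counting interval −1.43 to −1.22) that came to −0.71 with quantile normalization. Of the 3 chains of type IX collagen, which coats cartilage fibres, COL9A2 had 149.6 and 101.6 TPM at st.19 and 212.01 and 211.04 TPM at st.21. COL9A1 had only 3.70 and 2.12 TPM and then 3.51 and 3.08 TPM, and COL9A3 had 5.30 and 3.71 TPM and then 3.18 and 3.28 TPM. For each TPM of COL9A2 there were thus between 0.0146 and 0.0247 TPM of COL9A1, depending on the column. COL9A1 overlaps LOC117875194 in the annotation. The log2 fold change was 0.78 for COL9A2, while those of COL9A1 (0.23, interval −0.94 to 1.22) and COL9A3 (−0.46, interval −1.90 to 0.60) rest on 8 to 29 reads a column. Cartilage markers outside the collagens differed among themselves as deposited. Of 8 listed, 6 were analysed (MATN1 and MATN3 were not). As deposited 4 of the 6 were higher, with none past the fold in either direction. With the rRNA gene left out 0 of the 6 were higher and 2 were below −1 (27.1% of all genes were). The median was then −0.26 over the 6 markers and −0.51 over all genes. The 6 summed to 125 and 89.3 TPM at st.19 and 134 and 130 TPM at st.21. CNMD made up most of that sum, with 97.2 and 70.6 and then 109 and 107 TPM (0.38, interval 0.18 to 0.64, and −0.18 with the rRNA gene left out). ACAN, the large proteoglycan of cartilage, was at 2.86 and 1.85 TPM and then 1.29 and 1.33 TPM, from 35, 31, 7 and 7 reads. Its log2 fold change was −0.81 (−1.38 with the rRNA gene left out), with an interval of −2.44 to 0.16 that included 0. SOX9, the factor that turns on COL2A1 in chondrocytes, was at 12.8 and 9.04 TPM and then 13.4 and 12.3 TPM. The source of the COL2A1 reads was not tested.

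The make-up of the collagen message was read from ratios within a column, which do not change when a whole column is scaled by 1 factor, though quantile normalization changes them. Fibrillar chains held 71.0% and 70.8% of the TPM of the 39 chains at st.19 and 86.0% and 85.8% at st.21. The share of the network chains went from 6.07% and 6.20% to 2.50% and 2.58%. For the FACIT chains it went from 6.19% and 6.29% to 2.35% and 2.38%. The multiplexin and other chains held 12.11% and 12.002% and then 5.59% and 5.64%, and the beaded chains 3.90% and 3.95% and then 3.43% and 3.44%. The 2 columns of a stage were alike in every class. The fibrillar share was higher at st.21 and the share of each other class lower, the transmembrane chains going from 0.717% and 0.736% to 0.154% and 0.15%. Together the collagen chains took 3.04% and 2.93% of all reads on genes at st.19 and 9.89% and 9.87% at st.21.

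Partner chains kept their proportions to different degrees. There were 2.36 and 2.30 TPM of COL1A1 for each TPM of COL1A2 at st.19, and 2.56 and 2.50 at st.21, a log2 change of 0.12 that came to −0.25 with quantile normalization. The ratio of COL4A1 to COL4A2 was 1.095 and 1.079 and then 1.149 and 1.176, a change of 0.10 whose counting interval of −0.04 to 0.18 included 0. COL5A1 against COL5A2 stood at 0.859 and 0.849 and then 0.907 and 0.911. In contrast, COL5A3 gained on COL5A1 (0.661 and 0.656, then 0.931 and 0.911, interval of the log2 change 0.39 to 0.60). COL5A1 lagged behind COL1A1, with 0.124 and 0.127 TPM for each TPM of COL1A1 at st.19 and 0.0625 and 0.0645 at st.21. The log2 change of this ratio was −0.98, and −0.40 with quantile normalization. With that normalization COL5A3 had a log2 fold change of 1.49, above the 1.37 of COL1A1. COL3A1 and COL1A1 moved nearly together, at 0.501 and 0.515 and then 0.547 and 0.563 (0.13, and 0.33 with quantile normalization).

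**Figure D3:**
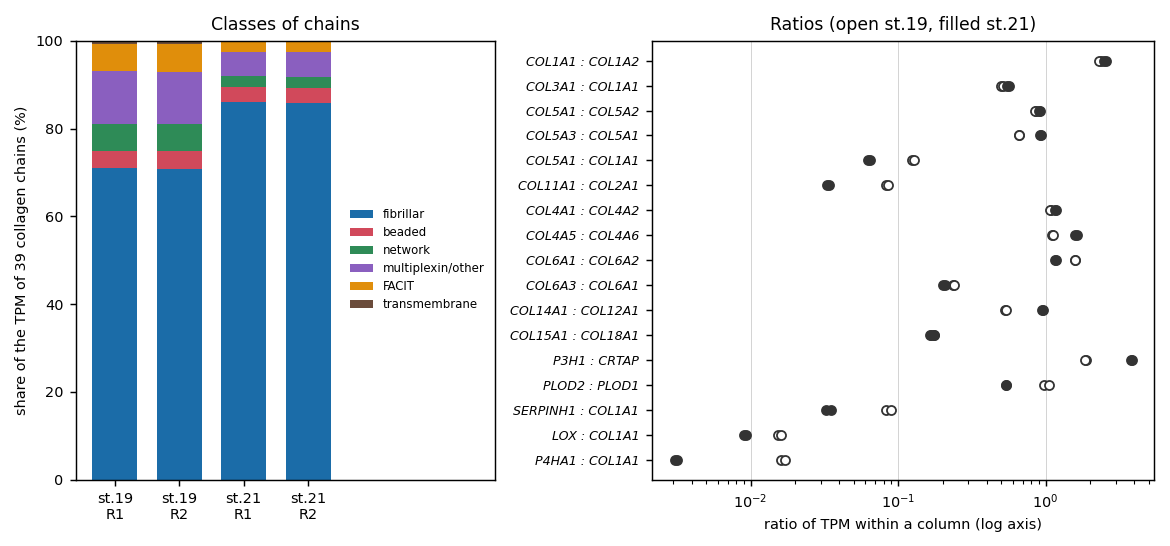
Left, the share of each class in the summed TPM of the 39 collagen chains, in percent, for each column. Right, ratios of TPM between named genes within a column on a log axis (open points st.19, filled points st.21); the fibrillar share is 71.0% and 70.8% at st.19 and 86.0% and 85.8% at st.21, and P4HA1 against COL1A1 shows the widest gap between the stages of the ratios plotted.

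Type VI collagen, whose beaded filaments surround cells in many tissues including nerve, was higher in all of its 3 chains. COL6A1 had 235 and 163 TPM at st.19 and 676 and 667 TPM at st.21. COL6A2 had 150 and 103 TPM and then 578 and 579 TPM, and COL6A3, the longest chain, had 55.59 and 39.01 TPM and then 137 and 139 TPM. In each chain both st.21 columns lay above both st.19 columns. The log2 fold changes were 1.78 for COL6A1 (interval 1.68 to 1.85), 2.22 for COL6A2 (2.11 to 2.28) and 1.56 for COL6A3 (1.43 to 1.66). COL6A3 came to 0.997 with the rRNA gene left out. The chains did not move in step, as COL6A1 had 1.573 and 1.583 TPM for each TPM of COL6A2 at st.19 and 1.169 and 1.153 at st.21.

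Network collagens were higher by less. COL4A1, the main chain of basement membranes (chromosome 1, 241022367 to 241241272), had 297 and 206 TPM at st.19 and 434 and 451 TPM at st.21. COL4A2, its partner in the same helix (chromosome 1, 240796783 to 241022199), had 271 and 191 TPM and then 378 and 383 TPM. Both genes were higher in both st.21 columns, with log2 fold changes of 0.84 and 0.74, short of the fold of 1. The second pair differed in itself. COL4A5, with 43.3 and 29.3 TPM and then 97.8 and 98.9 TPM, had a log2 fold change of 1.46. COL4A6, with 39.1 and 26.2 TPM and then 62.2 and 60.2 TPM, had one of 0.93. COL4A5 fell below 1 under 2 of the 7 scalings, to 0.90 at the lowest. The ratio of COL4A5 to COL4A6 moved from 1.11 and 1.12 to 1.57 and 1.64. COL4A4, a chain best known from the kidney filter, was covered by 3 and 4 reads at st.19 and by 8 reads per column at st.21, and its log2 fold change of 1.86 has an interval from 0.65 to 5.26. COL10A1, a mark of hypertrophic chondrocytes, had 2.32 and 1.39 TPM from 9 and 7 reads at st.19 and 6.59 and 6.82 TPM from 15 and 15 reads at st.21, a log2 fold change of 1.90 (interval 0.74 to 3.40). COL10A1 overlaps NT5DC1 in the annotation. Bone markers (6 of 8 analysed, SP7 and DMP1 not) summed to 38.4 and 27.5 TPM at st.19 and to 57.6 and 57.3 TPM at st.21. As deposited 5 of the 6 were higher and 1 was lower, and with the rRNA gene left out 3 were higher. Only 1 was above 1 (17.3% of all genes tested were) and none below −1. This was IBSP, an osteoblast gene, without reads at st.19 and with 15 reads per column at st.21. The part of bone-forming cells in the COL10A1 reads was not tested. COL8A1 (1.03, interval 0.24 to 1.98) was above 1 as deposited but below it under 5 of the 7 scalings, with 0.47 as the lowest. COL8A2 had 0.21, and −0.36 with the rRNA gene left out.

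Basement membrane collagens of the multiplexin type were abundant at both stages. COL18A1, the precursor of endostatin (chromosome 11, 62224296 to 62476596), had 1088 and 728 TPM at st.19 and 1842 and 1825 TPM at st.21. COL15A1, whose loss in the mouse disturbs the sorting of axons by Schwann cells, had 181 and 128 TPM and then 304 and 321 TPM. Their log2 fold changes were both 1.04, and both dropped below 1 under 5 of the 7 scalings, COL18A1 to 0.08 with quantile normalization and COL15A1 to 0.47 with the rRNA gene left out. As deposited, COL15A1 stood at 0.166 and 0.176 of COL18A1 at st.19 and at 0.165 and 0.176 at st.21, with an interval of the log2 change from −0.13 to 0.11, though quantile normalization gave a change of 0.45. COL26A1 had a log2 fold change of 0.73, and it overlaps RPS28 and LOC117867484 in the annotation. COL7A1, the anchoring fibril chain of skin (0.42), and COL28A1, a chain found around glia of mouse nerve (0.39), turned negative (−0.14 and −0.17) with the rRNA gene left out. Endothelial markers, whose cells also make basement membrane, summed over all 8 listed to 95.4 and 67.3 TPM at st.19 and to 175 and 181 TPM at st.21, and the part of vessels in these differences was not tested.

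FACIT chains were mixed, with 3 of 10 above 1 (17.3% of all genes tested were) and 1 below −1 (9.68% were). Their median was 0.51, beside 0.06 over all genes tested. COL21A1 had 4.99 and 3.38 TPM at st.19 and 17.0 and 16.9 TPM at st.21, a log2 fold change of 2.04 (interval 1.52 to 2.65). COL16A1, which overlaps LOC117868201 in the annotation, had 42.1 and 27.5 TPM and then 127 and 124 TPM, a log2 fold change of 1.88. COL20A1 was also above 1 as deposited, at 1.14, but below 1 under 4 of the 7 scalings, with 0.57 as the lowest. The most abundant FACIT chain was nearly level. COL12A1, a fibre-surface collagen of dense connective tissue, had 245 and 170 TPM at st.19 and 215 and 220 TPM at st.21, with the st.21 values between those of st.19. Its log2 fold change of 0.09 has an interval of −0.02 to 0.13 and turned negative under 5 of the 7 scalings, to −0.48 at the lowest. COL14A1, a related chain that shares its fibre-surface role, had 130 and 91.9 TPM and then 205 and 209 TPM (0.92, interval 0.80 to 1.01). The ratio of COL14A1 to COL12A1 moved from 0.532 and 0.539 to 0.954 and 0.949. COL19A1 was the only chain below −1, with 27.7 and 19.4 TPM at st.19 and 11.0 and 10.5 TPM at st.21, or 2.161-fold lower (log2 fold change −1.11, interval −1.57 to −0.68). Without st.19 replicate 1 its log2 fold change was −0.86, short of −1. COL9A3 passed −1 (−1.02) with the rRNA gene left out. COL22A1, a chain of muscle and tendon junctions, had −0.20 with an interval of −0.82 to 0.24.

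None of the 3 transmembrane collagens was past the fold, where 17.3% of all genes tested were above 1 and 9.68% below −1. COL25A1, which motor axons need to enter muscle in the mouse, had 60.001 and 41.907 TPM at st.19 and 37.1 and 39.6 TPM at st.21, a log2 fold change of −0.39 (interval −0.78 to −0.14). Both st.21 values lay below both st.19 values. Of 7 neuron markers 6 were lower as well as deposited, and 4 were below −1 (9.68% of all genes tested were). NEFL, among the most abundant of them, was higher (0.39, interval 0.28 to 0.43), and −0.58 at the lowest scaling. The part of neurons in the COL25A1 difference was not tested. COL13A1, a collagen of the neuromuscular junction, had 9.03 and 6.66 TPM and then 12.6 and 11.7 TPM (0.65, interval 0.12 to 1.36). COL23A1 had 11.96 and 8.16 TPM and then 12.95 and 8.99 TPM, from 32, 30, 17 and 11 reads, so that its stages overlapped. Its log2 fold change of 0.13 changed sign under 3 of the 7 scalings, and its interval of −0.56 to 1.27 included 0. 

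**Figure D4:**
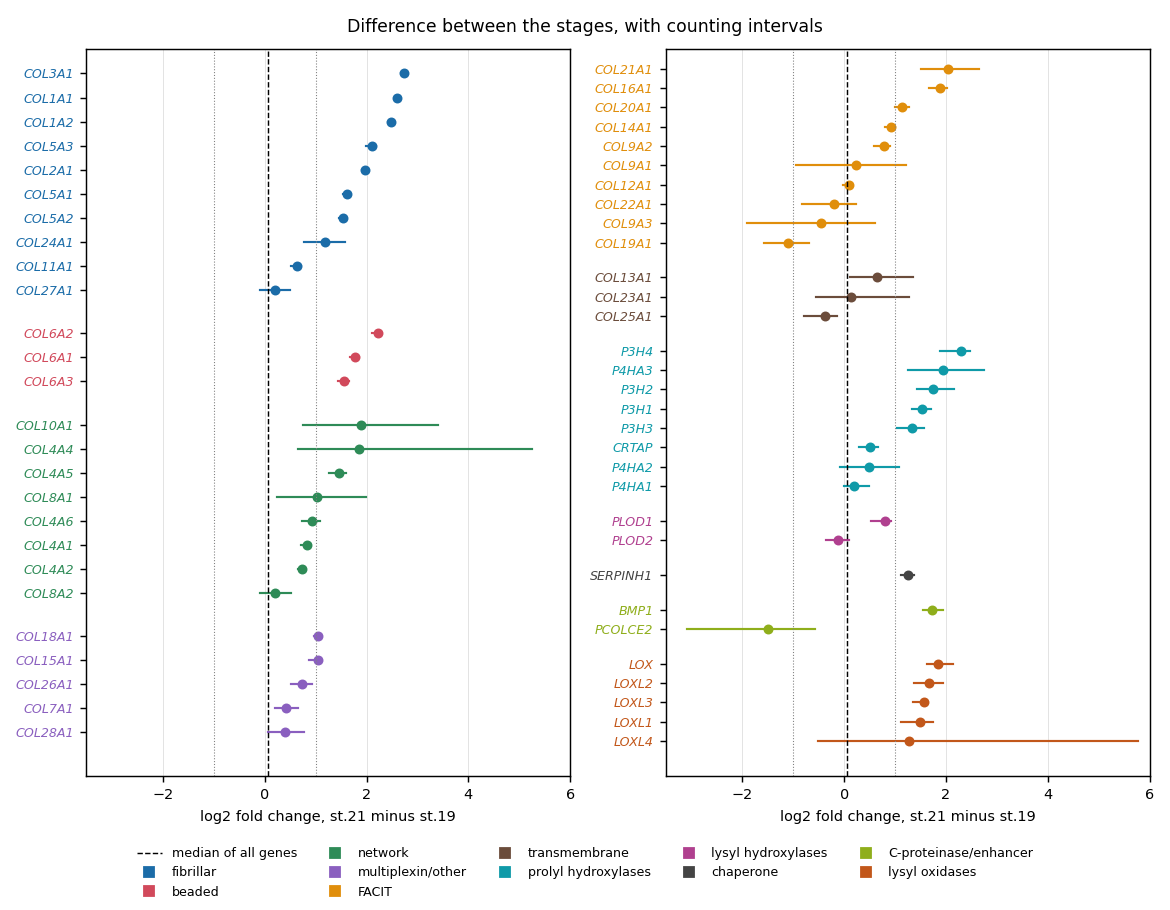
Log2 fold change (st.21 minus st.19, points) of each of the 57 genes with its exact 95% counting interval from the replicate 1 reads (bars), grouped by class; the dashed line is the median of all genes tested (0.06) and the dotted lines mark −1 and 1. The 10 fibrillar chains lie between 0.21 and 2.73, and only PCOLCE2 and COL19A1 lie beyond −1.

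Among the prolyl hydroxylases the 4 genes of the 3-hydroxylase branch were above 1 as deposited and the main 4-hydroxylase subunits were not. P3H1, which hydroxylates a proline of type I collagen in a complex with CRTAP, had 94.6 and 63.2 TPM at st.19 and 227 and 218 TPM at st.21, a log2 fold change of 1.53 (0.96 with the rRNA gene left out). CRTAP had 50.4 and 34.0 TPM and then 59.5 and 57.6 TPM, a log2 fold change of 0.50 that came to −0.07 with the rRNA gene left out. For each TPM of CRTAP there were 1.88 and 1.86 TPM of P3H1 at st.19 and 3.83 and 3.79 at st.21. P3H4, a relative that works with lysyl hydroxylase in the mouse, had 30.8 and 18.0 TPM and then 116 and 116 TPM, the largest log2 fold change of the enzymes at 2.30 (interval 1.89 to 2.48). P3H2 (1.74) and P3H3 (1.33) were higher as well, P3H3 falling below 1 under 3 of the 7 scalings, to 0.76 at the lowest. The catalytic subunit of the main prolyl 4-hydroxylase, P4HA1, had 44.3 and 31.6 TPM at st.19 and 44.2 and 41.5 TPM at st.21, with overlapping stages and a log2 fold change of 0.20 (interval −0.01 to 0.49, and −0.37 at the lowest scaling). P4HA1 overlaps NUDT13 in the annotation. P4HA2 (0.48) was alike, with an interval of −0.09 to 1.08, and turned to −0.09 with the rRNA gene left out. P4HA3, the least abundant subunit, had 5.58 and 3.75 TPM and then 17.3 and 17.9 TPM, from 24 to 42 reads a column, a log2 fold change of 1.95 (interval 1.25 to 2.75).

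Neither of the 2 lysyl hydroxylases was past the fold, where 17.3% of all genes tested were above 1 and 9.68% below −1. PLOD1, which acts on the helix, had 77.1 and 50.4 TPM at st.19 and 107 and 109 TPM at st.21 (0.80, interval 0.53 to 0.91). PLOD2, which acts on the telopeptides that become cross-linked, had 75.2 and 53.5 TPM and then 57.8 and 59.2 TPM, overlapping between the stages (−0.12, interval −0.37 to 0.09). The ratio of PLOD2 to PLOD1 went from 0.976 and 1.06 to 0.538 and 0.541, a log2 change of −0.92 (interval −1.15 to −0.57). SERPINH1, the collagen chaperone (chromosome 1, 333979030 to 333987564), was the most abundant of the 18 genes, with 227 and 164 TPM at st.19 and 451 and 474 TPM at st.21. Its log2 fold change was 1.26 as deposited and 0.69 with the rRNA gene left out.

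Genes that act outside the cell were higher, with PCOLCE2 as the exception. BMP1, the procollagen C-proteinase, had 45.0 and 32.3 TPM at st.19 and 127 and 126 TPM at st.21, a log2 fold change of 1.73. PCOLCE2, an enhancer of that cleavage, had 13.7 and 9.46 TPM and then 3.98 and 4.11 TPM, from 56, 53, 7 and 7 reads, and was 2.82-fold lower (log2 fold change −1.50, interval −3.09 to −0.57). The 2 genes thus differed in opposite directions. LOX, the founding lysyl oxidase (chromosome 6, 72872430 to 72885892), had 42.2 and 29.7 TPM and then 130 and 123 TPM, a log2 fold change of 1.84 (interval 1.63 to 2.13). LOXL3, the most abundant of the family, had 133 and 73.1 TPM and then 315 and 273 TPM (1.58). Its columns were less alike than those of most genes, with 811 and 614 reads at st.19 and 933 and 778 at st.21. LOXL2 had 20.4 and 14.3 TPM and then 53.8 and 54.3 TPM (1.66). LOXL1, which also serves elastic fibres, had a log2 fold change of 1.49, and 0.93 at the lowest scaling. LOXL4 was covered by 2 reads per column at st.19 and by 4 and 3 reads at st.21, and its value of 1.27, counted above 1, has an interval from −0.51 to 5.76.

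Gene by gene the enzymes had the higher median fold change (1.41, against 1.03 for the chains), but their summed TPM made up less of the collagen total at st.21. For every 100 TPM of collagen chains there were 8.63 and 8.55 TPM of the 18 enzymes and cofactors at st.19, and 4.84 and 4.79 at st.21. Over the same stages COL1A1, COL1A2, COL3A1 and COL2A1 went from 61.0% and 60.7% to 79.0% and 78.7% of the chains' TPM. P4HA1 had 0.0160 and 0.0171 TPM for each TPM of COL1A1 at st.19 and 0.00318 and 0.00306 at st.21, a log2 change of −2.41 (interval −2.58 to −2.08). The log2 change against COL1A1 was −2.72 for PLOD2, −1.34 for SERPINH1, −0.87 for BMP1 and −0.77 for LOX. With quantile normalization the changes against COL1A1 were −1.35 for P4HA1, −1.75 for PLOD2 and −0.65 for SERPINH1, and turned to 0.08 for BMP1 and 0.19 for LOX.

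Other genes of collagen making and sensing were read from a list of 36, of which 32 were analysed (BGN, CTSK, FAP and MMP14 were not). Of these, 13 were above 1 (17.3% of all genes tested) and 2 below −1 (9.68%), with a median log2 fold change of 0.63. Median centring left 10 above 1 (16.6% of all genes), losing P4HB, MRC2 and DDR2. Leaving out the rRNA gene gave 6 above 1 (7.09% of all genes) and 5 below −1 (27.1%). The values that follow are as deposited. In the folding group 4 of 8 were above 1, namely the proline isomerases FKBP10 (2.05) and PPIB (1.58), the collagen-binding protein SPARC (1.94) and P4HB (1.02), the beta subunit shared by the prolyl 4-hydroxylases. SPARC was the most abundant of them, with 732 and 578 TPM at st.19 and 2444 and 2563 TPM at st.21. CREB3L1, a factor that turns on type I collagen genes in mouse bone, had 39.1 and 28.2 TPM and then 144 and 142 TPM (2.11). In the export group SEC24D, a coat protein of the secretory pathway, was above 1 (1.18), whereas MIA3, the receptor that loads procollagen for export, had −0.54. Of the genes for cleavage of N-propeptides, ADAMTS2 (1.03) and ADAMTS14 (0.61) were higher and ADAMTS3 (−1.06) was lower. The C-proteinase relatives TLL1 and TLL2 had 1.17 and −0.16. The fibre-bound proteoglycan FMOD had 1.38. Of the receptors, ITGA11 (1.74) and ITGA10 (1.59), which pair with ITGB1 to bind collagen, were above 1. So were DDR2 (1.01) and the uptake receptor MRC2 (1.02), while ITGA2 (−1.07) was below −1. ITGA10 rests on 16 to 26 reads a column (interval 0.47 to 2.41), and ITGB1 itself had −0.21 (interval −0.33 to −0.13). ITGA1, the most abundant alpha subunit of these, had 156 and 109 TPM at st.19 and 76.5 and 77.5 TPM at st.21 (−0.76).

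Markers of fibroblasts and perineurium were higher as deposited, as were most markers of several other cell types. Of 12 listed, 11 were analysed (TCF21 was not). As deposited all 11 had a higher mean at st.21 (53.1% of all genes tested did) and 5 were above 1 (17.3% did), namely DPT, PRRX1, OSR1, SLC2A1 and TWIST2. With the rRNA gene left out 10 were higher and 2 above 1 (7.09% of all genes were above 1). Their summed TPM was 777 and 538 at st.19 and 1282 and 1258 at st.21. DPT had the largest difference (3.31, from 11 reads in st.19 replicate 1), while PDGFRA had 49.4 and 33.8 TPM and then 45.0 and 45.1 TPM, a log2 fold change of 0.14 (interval −0.10 to 0.31) that turned to −0.43 with the rRNA gene left out. TWIST2, from 12 to 15 reads a column, had 1.17 with an interval of −0.10 to 2.26 that included 0. DCN and LUM, the most abundant of the list, had 0.99 and 0.93, below the values of COL1A1 and COL3A1. Of the other markers analysed, all 8 endothelial, all 8 skeletal muscle, all 5 immune and 6 of 8 Schwann cell markers were higher as deposited. So were 5 of 6 bone, 4 of 6 cartilage and 1 of 7 neuron markers. With the rRNA gene left out the bone, cartilage and neuron counts were 3, 0 and 0, and the immune count was 4. The median over all genes was then −0.51. SPI1, among the immune markers, passed the filter through its st.21 values alone. As deposited, the median log2 fold change was 5.48 for skeletal muscle, 2.46 for immune and 1.07 for endothelial markers. It was 0.99 for fibroblast and perineurium, 0.89 for Schwann cell, 0.44 for bone, 0.31 for cartilage and −1.16 for neuron markers. The part of any of these cell types in the collagen differences, muscle among them, was not tested.

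Some partner chains lie side by side in the CAS_Tse_1.0 assembly. COL4A2 and COL4A1 are separated by 167 nt on chromosome 1, and COL4A6 and COL4A5 by 1164 nt on chromosome 9 (17376017 to 17571568 and 17572733 to 17713008). The first pair had log2 fold changes of 0.74 and 0.84 and the second of 0.93 and 1.46. COL3A1 and COL5A2 are 5559 nt apart on chromosome 11, with fold changes of 2.73 and 1.53. COL6A2 and COL6A1 lie 62120 nt apart on the same chromosome and had 2.22 and 1.78. COL9A1 and COL19A1, on chromosome 3 with 1 annotated gene between them, had 0.23 and −1.11.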

How the data were processed

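Polyadenylated RNA of *T. scripta* peripheral nerve was measured at st.19 and st.21. By the study's methods and the submitters' notes, single-end reads were aligned with HISAT2 to CAS_Tse_1.0, counted with featureCounts and filtered in edgeR 3.42.4 on a CPM of at least 1. The authors deposited log2 TPM values, with a prior count added before the logarithm. Thus a gene without reads still has a TPM above 0. Columns were matched to samples by stage and number, and the study gives N = 1 per stage. The names of the st.21 columns carry an extra digit whose meaning is not given in the sources used here. No per-sample column went unused.

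To rebuild whole reads, every length up to 150000 nt was tried for a gene until all 4 columns came out whole, anchored on gene lengths from a supplementary table. All 15289 genes gave exactly 1 length, and a simulation on 3058 genes returned 100%. Genes reaching 1 TPM in 2 or more columns entered the comparison. A log2 fold of 1 marks a difference, without p-values. Counting intervals are Clopper-Pearson (95%) for genes and Wald for ratios. Precision follows the reads, and members with 10 or fewer reads in a column were given with their reads.

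The members, classes and gene lists were chosen with earlier results of these data known. Named with all columns were, per class, the 2 most abundant and the 2 with the largest fold, their partner chains, genes below −1 and genes with few reads. COL2A1, type V and other FACIT and network chains, P3H1 with CRTAP where outside that rule, and the ratios were chosen after their values were seen. So were, outside the members, MIA3, ADAMTS14, TLL2, ITGA1, ITGB1, PDGFRA, DCN, LUM, NEFL, SOX9, ACAN and CNMD. Symbols were matched to the RefSeq table of the same assembly (57 of 57 members). Alternatives were 4 leave-one-out settings, scaling, pseudocount and filters. The work was done in Python 3.11.15 with scipy 1.17.1 for intervals, numpy 2.4.6, pandas 2.3.3, and figures in matplotlib 3.10.9.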

Additional observations from a re-analysis of the deposited data

How the results depend on the processing

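No paired analysis was possible because the results come from no test and each stage is 1 sample. The counts and medians kept their direction under every alternative run. When the total was taken over protein-coding genes, the median log2 fold change was 0.61 over the members, 0.51 over the chains and 0.89 over the enzymes. Quantile normalization gave 0.78 over the members and 0.61 over the chains, and scaling by recovered reads without gene length gave 0.81 and 0.70. The median over all genes was −0.46 with the protein-coding total, −0.07 with quantile normalization and −0.27 with recovered reads. Leaving the rRNA gene out of the total, chosen after seeing the data, gave 19 members above 1 in place of 32 (7.09% of all genes). It gave 3 below −1 in place of 2 (27.1% of all genes), as COL9A3 was added. The medians were then 0.57, 0.47 and 0.84 for members, chains and enzymes. Over all genes the median was −0.51, and that of the members stood 1.07 above it. The authors' effective library sizes, also added afterwards, gave 29 members above 1 (15.2% of all genes). Leaving out each column in turn gave 27 to 38 members above 1 (11.5% to 25.2% of all genes) and 1 to 2 below −1 (6.09% to 15.8%). The medians were then 0.88 to 1.39 over the members, 0.75 to 1.24 over the chains and 1.10 to 1.69 over the enzymes. Over all genes they were −0.21 to 0.33. The count of 1 came without st.19 replicate 1, where COL19A1 was at −0.86. Over all genes the split of calls moved from 2605 above 1 and 1461 below −1 to 1045 and 3509 with the protein-coding total. With a single sample per stage, nothing here measures differences between embryos, and genes with few reads (LOXL4, COL4A4, COL10A1, COL9A1, COL9A3, PCOLCE2) have wide counting intervals.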
